A study of Mus musculus with 46 samples.

Results

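A set of 9 genes, Cd34, Chst1, Htra3, Scimp, Khdrbs3, Cd79b, Nbl1, Pde2a and Mlph, is described here in microglia that refilled the adult mouse brain after depletion, out of 21231 genes measured in the series. They were selected on their FPKM values, which differed between white matter (WM) repopulating cells and control microglia, either at 0 hr or at 6 hr after lipopolysaccharide (LPS), so those differences are given as a description and were not tested. Microglia were depleted in C57BL/6 mice aged 2 months with PLX3397, which blocks CSF1 receptor signaling and thereby removes cells that need it to live. WM repopulating cells came from mice given PLX3397 for 14 days and 28 days of recovery, and control microglia from mice without it, and both were followed at 0 hr (n = 4 and 3), 6 hr (n = 4 and 5) and 24 hr (n = 4 and 4) after LPS. The 0 hr libraries had no LPS. GLOBAL repopulation followed 7 days of PLX3397 and 28 days of recovery (n = 3, with 4 controls), and none of these mice had LPS. Tissue of the subventricular zone (SVZ) came from control mice, mice at 14 days of PLX3397, and mice given 5 days of recovery after the same 14 days (n = 5 each). The WM and GLOBAL libraries hold sorted CD11b+ CD45int cells from whole hemispheres, so the name WM refers to the kind of repopulation and not to a dissected region.

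The 9 genes have roles that differ widely. Cd34 is a surface sialomucin best known from hematopoietic progenitors and vessels, Chst1 is a Golgi enzyme that adds sulfate to galactose of keratan sulfate, Htra3 is a secreted serine protease, and Scimp is a membrane adaptor of antigen-presenting cells that binds Lyn, Csk and SLP adaptors and works downstream of Toll-like receptors. Khdrbs3 is a splicing regulator that binds RNA, and Cd79b is the beta chain of the B cell receptor, also present in microglia. Nbl1 is a secreted antagonist of bone morphogenetic proteins, Pde2a is a phosphodiesterase that breaks down cAMP and is stimulated by cGMP, and Mlph links Rab27a to the motor myosin Va.

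Levels are in FPKM, that is, read counts scaled to gene length and to library size, and a fold is a ratio of group means unless it is given as a log2 fold change, which is on the log2(FPKM + 1) scale and understates the change of low genes. Libraries held 4949000 to 11025000 reads in the WM experiment, 2060000 to 5423000 reads in the GLOBAL experiment and 8727000 to 19347000 reads in SVZ tissue, to the nearest 1000 and as far as the FPKM steps show. In SVZ tissue, the recovered counts of these genes were all even in every control library. The same held for 14 day PLX3397 replicate 5 and for recovery replicates 1, 2 and 5. Odd counts occurred in the other SVZ libraries, so a recovered read may not be the same unit in all of them. The cause was not tested. The least covered of the 9 genes in the WM experiment were Nbl1, with 0 to 165 reads a library, and Khdrbs3, with 5 to 208 reads, and in the GLOBAL experiment Nbl1 had 2 to 88 reads and Scimp 6 to 52 reads. All 12 markers of homeostatic microglia were present in the sorted cells, with sums of 22063 to 26532 FPKM at 0 hr in both origins together. Of the 12, 1, Fcrls, was called lower in WM repopulating cells at 24 hr (log2 fold change -1.13, limma adjusted p = 0.0044). The median log2 fold change of the list was -0.019 at that time. Neutrophil markers were high as well and varied strongly, with sums in the WM experiment from 716 FPKM in a WM 6 hr library to 15586 FPKM in a control 24 hr library. Their part in the results below was not tested.

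The start of the gene was looked up for 6 of the 9 members in the promoter table of RefSeq (GRCm38.p6, the assembly of mm10, the build named in the submitters' processing notes). The sequences before the outermost start are shown for Cd34 and Htra3, which were higher in WM repopulating cells, and Pde2a, which was lower. These 3 sequences are shown because they are the longest stretches before a start that lie outside the annotated span of the gene. Each runs 5′ to 3′ on the strand of the gene and ends at the base before the annotated span of the gene. Capitals mark the only searched motif found, GAAANNGAA.
Cd34 (chr1:194938571-194938820, + strand): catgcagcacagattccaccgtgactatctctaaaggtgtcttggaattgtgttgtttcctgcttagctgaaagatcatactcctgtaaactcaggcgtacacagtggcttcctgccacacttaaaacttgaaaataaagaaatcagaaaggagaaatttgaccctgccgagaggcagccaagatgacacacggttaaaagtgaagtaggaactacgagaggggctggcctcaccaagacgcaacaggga
Htra3 (chr5:35679814-35680030, - strand): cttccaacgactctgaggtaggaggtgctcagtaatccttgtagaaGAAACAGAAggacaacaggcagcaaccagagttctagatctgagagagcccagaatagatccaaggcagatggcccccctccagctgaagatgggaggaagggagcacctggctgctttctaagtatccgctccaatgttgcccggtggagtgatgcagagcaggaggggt
Pde2a (chr7:101421441-101421690, + strand): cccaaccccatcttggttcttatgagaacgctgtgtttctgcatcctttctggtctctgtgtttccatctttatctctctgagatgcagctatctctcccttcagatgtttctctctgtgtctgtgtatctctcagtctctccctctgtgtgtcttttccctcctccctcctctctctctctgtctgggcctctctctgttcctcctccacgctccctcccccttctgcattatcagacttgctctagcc
A set of 7 motifs was searched on both strands in the 250 bases before each of 10 starts of the 6 genes and of 32851 starts in all. GAAANNGAA was present before the start of Htra3 and of 7.13% of all starts. GGGCGG was present before starts of Nbl1, Pde2a and Mlph, against 32.7% of all starts, and the Pde2a start that holds it is not the one shown. CACGTG was present before Mlph only among the members, against 6.02% of all starts, and GAGGAAGT (2.44%), TGANTCA (6.75%), TGACGTCA (1.55%) and TATAAA (12.4%) were before no member start. The bases before Nbl1 were 77.6% G or C, whereas those before Cd34 were 46.4%, against a median of 52.4% over all starts. These matches describe letters in a window and were not tested as binding sites.

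Cd34 lies at chr1:194938821-194961292 and its span overlaps that of the lncRNA Gm16897. It was the most abundant of the 9 genes in WM repopulating cells at each time. At 0 hr the control libraries had 80.8, 94.6 and 90.6 FPKM and the WM libraries 158, 162, 186 and 188 FPKM. At 6 hr they had 54.6, 38.4, 40.8, 43.499 and 52.3 FPKM in control microglia and 96.8, 104, 124 and 96.2 FPKM in WM repopulating cells. Every WM library lay above every control library of its time, by 1.95-fold at 0 hr and 2.29-fold at 6 hr. At 24 hr, a time that the choice of genes did not use, control microglia had 148, 146, 128 and 110.3 FPKM and WM repopulating cells 256, 182, 215 and 151 FPKM. The groups again did not overlap, and Cd34 was 1.51-fold higher (log2 fold change 0.57 ± 0.15 SE, limma adjusted p = 0.0309). This call was lost when control replicate 3 or 4 or WM replicate 1 or 3 of 24 hr was left out, with log2 fold changes down to 0.45 and adjusted p up to 0.111, and when the 24 hr groups alone were fitted (adjusted p = 0.131).

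Chst1 (chr2:92599632-92615252) differed between the origins with little change over time in WM repopulating cells. The control libraries had 9.26, 12.3 and 20.3 FPKM at 0 hr, 11.1, 7.82, 9.44, 8.73 and 9.89 FPKM at 6 hr and 22.2, 22.499, 14.998 and 15.6 FPKM at 24 hr. The WM libraries had 42.6, 36.8, 37.2 and 40.4 FPKM at 0 hr, 42.9, 57.3, 40.6 and 38.4 FPKM at 6 hr and 49.1, 35.1, 50.9 and 38.7 FPKM at 24 hr. The 3 WM group means were within 39.2 and 44.8 FPKM with overlapping ranges, and all 12 control libraries lay below all 12 WM libraries. The fold was 2.81 at 0 hr, 4.76 at 6 hr and 2.31 at 24 hr, and the last was called (log2 fold change 1.17 ± 0.19 SE, limma adjusted p = 0.000929).

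Htra3 (chr5:35652026-35679813) differed several-fold between the origins at each time, and its means were lowest at 6 hr in both. Control microglia had 3.45, 4.59 and 3.62 FPKM at 0 hr, 0.667, 0.9998, 2.13, 1.05 and 3.05 FPKM at 6 hr and 10.1, 12.7, 6.55 and 3.23 FPKM at 24 hr. WM repopulating cells had 21.6, 15.7, 19.6 and 18.7 FPKM at 0 hr, 7.66, 11.1, 6.61 and 7.25 FPKM at 6 hr and 29.2, 27.8, 29.7 and 21.2 FPKM at 24 hr. No WM library overlapped the controls of its time, and the 6 hr level of WM repopulating cells (8.14 ± 1.99 FPKM, SD, n = 4) was beside that of control microglia at 24 hr (8.14 ± 4.12 FPKM, SD, n = 4). The fold was 4.86 at 0 hr, 5.16 at 6 hr and 3.32 at 24 hr, where it was called (log2 fold change 1.73 ± 0.28 SE, limma adjusted p = 0.000929).

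Scimp (chr11:70790932-70812561) had the largest positive log2 fold change of the 9 genes at 24 hr. At 0 hr the control libraries had 8.32, 5.51 and 6.64 FPKM and the WM libraries 28.9, 28.51, 31.1 and 36.9 FPKM, and the groups did not overlap. At 6 hr the control libraries spread widely, with 21.8, 53.6, 4.498, 28.3 and 28.2 FPKM, and overlapped the WM libraries at 55.2, 66.1, 74.8 and 43.98 FPKM. Control replicate 2 was the highest and control replicate 3 the lowest, so the log2 fold change at 6 hr moved from 1.41 to 1.73 without replicate 2 and to 0.90 without replicate 3. At 24 hr the control libraries had 8.36, 9.82, 15.3 and 15.2 FPKM and the WM libraries 64.1, 97.4, 56.7 and 51.53 FPKM. They did not overlap, and Scimp was 5.54-fold higher (log2 fold change 2.38 ± 0.41 SE, limma adjusted p = 0.00138).

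Khdrbs3 (chr15:68928392-69101794, overlapping the lncRNA Gm31550) was lower in WM repopulating cells at each time. Control microglia had 15.004, 15.9 and 11.3 FPKM at 0 hr, 3.81, 1.82, 4.02, 1.47 and 1.51 FPKM at 6 hr and 4.09, 4.44, 6.15 and 5.28 FPKM at 24 hr. WM repopulating cells had 1.57, 4.10, 0.950 and 2.10 FPKM at 0 hr, 0.812, 0.489, 0.510 and 1.02 FPKM at 6 hr and 0.560, 0.353, 0.658 and 1.97 FPKM at 24 hr. All WM libraries lay below all controls of their time, at 15.49% of the control mean at 0 hr, 28.001% at 6 hr and 17.7% at 24 hr, or 10.49% without WM 24 hr replicate 4. The 24 hr difference was called (log2 fold change -1.73 ± 0.28 SE, limma adjusted p = 0.000993).

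Cd79b (chr11:106311341-106314562) was the most abundant of the lower genes in control microglia at 0 hr and at 24 hr. Control microglia had 56.01, 47.9 and 46.4 FPKM at 0 hr, 12.47, 4.31, 10.3, 4.65 and 7.65 FPKM at 6 hr and 25.6, 29.4, 26.6 and 35.3 FPKM at 24 hr. WM repopulating cells had 8.49, 9.65, 12.98 and 17.6 FPKM at 0 hr, 6.53, 3.22, 2.19 and 4.44 FPKM at 6 hr and 5.87, 5.69, 6.504 and 8.33 FPKM at 24 hr. The groups were apart at 0 hr (24.3% of the control mean) and at 24 hr (22.6%), and overlapped at 6 hr, when control microglia were also low. The difference at 24 hr was called (log2 fold change -1.99 ± 0.27 SE, limma adjusted p = 0.000143), and its adjusted p was the lowest among the 9 genes. Cd79a, the partner chain that B cells need, was at means of 0.189 FPKM in control microglia and 1.13 FPKM in WM repopulating cells at 0 hr, and at 0.358 and 0.417 FPKM at 24 hr. Of 14 B cell markers, 9 were listed and 5 tested, and 1 of them, the immunoglobulin D gene Ighd, was lower at 0 hr (log2 fold change -1.25) and 24 hr (log2 fold change -1.32). The median log2 fold change of the 5 was 0.33 at 0 hr, against the direction of Ighd and Cd79b, and -0.51 at 24 hr. The summed level of the 9 listed B cell markers was 371 to 512 FPKM in control microglia and 298 to 353 FPKM in WM repopulating cells at 0 hr. It was 39.1 to 223 FPKM against 26.0 to 112 FPKM at 6 hr, and 122 to 230 FPKM against 54.2 to 168 FPKM at 24 hr. In the GLOBAL experiment 13 were listed, with sums of 236 to 318 FPKM in controls and 226 to 233 FPKM after GLOBAL repopulation. Most of the sum at 0 hr was Ighm, with means of 433 and 312 FPKM, and the part of B cells in the level of Cd79b was not tested.

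Nbl1 (chr4:139082291-139093126) was low in WM repopulating cells at each time, and in control microglia at 24 hr. Control microglia had 5.32, 6.51 and 10.6 FPKM at 0 hr, 1.30, 14.7, 1.71, 3.56 and 1.19 FPKM at 6 hr and 0.406, 0.147, 0.734 and 0 FPKM at 24 hr. WM repopulating cells had 0.385, 0.539, 0.0729 and 1.82 FPKM at 0 hr, 0.800, 0.788, 0.705 and 1.28 FPKM at 6 hr and 0.547, 2.28, 0.442 and 0.273 FPKM at 24 hr. At 0 hr WM repopulating cells were at 9.42% of the control mean (4.44% without WM replicate 4), and at 6 hr 1 control library with 14.7 FPKM set most of the control mean, so the log2 fold change moved from -1.08 to -0.58 without it. At 24 hr both groups were near the level of a few reads, and no difference was detectable (log2 fold change 0.43, 95% interval -0.48 to 1.35, limma adjusted p = 0.673).

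Pde2a (chr7:101421691-101512829, with Mir139 within its span) was low in WM repopulating cells throughout. Control microglia had 9.55, 13.2 and 11.2 FPKM at 0 hr, 6.37, 4.86, 5.14, 5.05 and 4.48 FPKM at 6 hr and 5.27, 4.35, 3.497 and 1.84 FPKM at 24 hr. WM repopulating cells had 2.54, 2.12, 2.24 and 1.63 FPKM at 0 hr, 0.690, 0.732, 0.803 and 1.01 FPKM at 6 hr and 0.270, 2.995, 1.04 and 0.752 FPKM at 24 hr. They were at 18.8% of the control mean at 0 hr and 15.6% at 6 hr without overlap. At 24 hr they were at 33.8%, with WM replicate 2 inside the range of the controls (18.4% without it), and the difference was called (log2 fold change -1.14 ± 0.26 SE, limma adjusted p = 0.0119). The call was lost without control replicate 1 (adjusted p = 0.0505) and when the 24 hr groups alone were fitted (adjusted p = 0.119).

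Mlph (chr1:90915024-90951142) had the smallest log2 difference of the 9 genes at 0 hr. Control microglia had 13.505, 15.4 and 31.6 FPKM at 0 hr, 19.4, 11.8, 20.3, 17.3 and 14.4 FPKM at 6 hr and 15.8, 14.4, 8.42 and 9.17 FPKM at 24 hr. WM repopulating cells had 10.8, 10.8, 13.1 and 13.3 FPKM at 0 hr, 3.69, 4.47, 5.39 and 7.22 FPKM at 6 hr and 4.98, 10.6, 6.40 and 6.84 FPKM at 24 hr. The groups were barely apart at 0 hr, where control replicate 3 carried much of the difference (log2 fold change -0.61, and -0.25 without it), and clearly apart at 6 hr, with WM repopulating cells at 31.2% of the control mean. At 24 hr they overlapped, and the difference was not called (log2 fold change -0.65, 95% interval -1.18 to -0.13, limma adjusted p = 0.159).

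**Figure D1:**
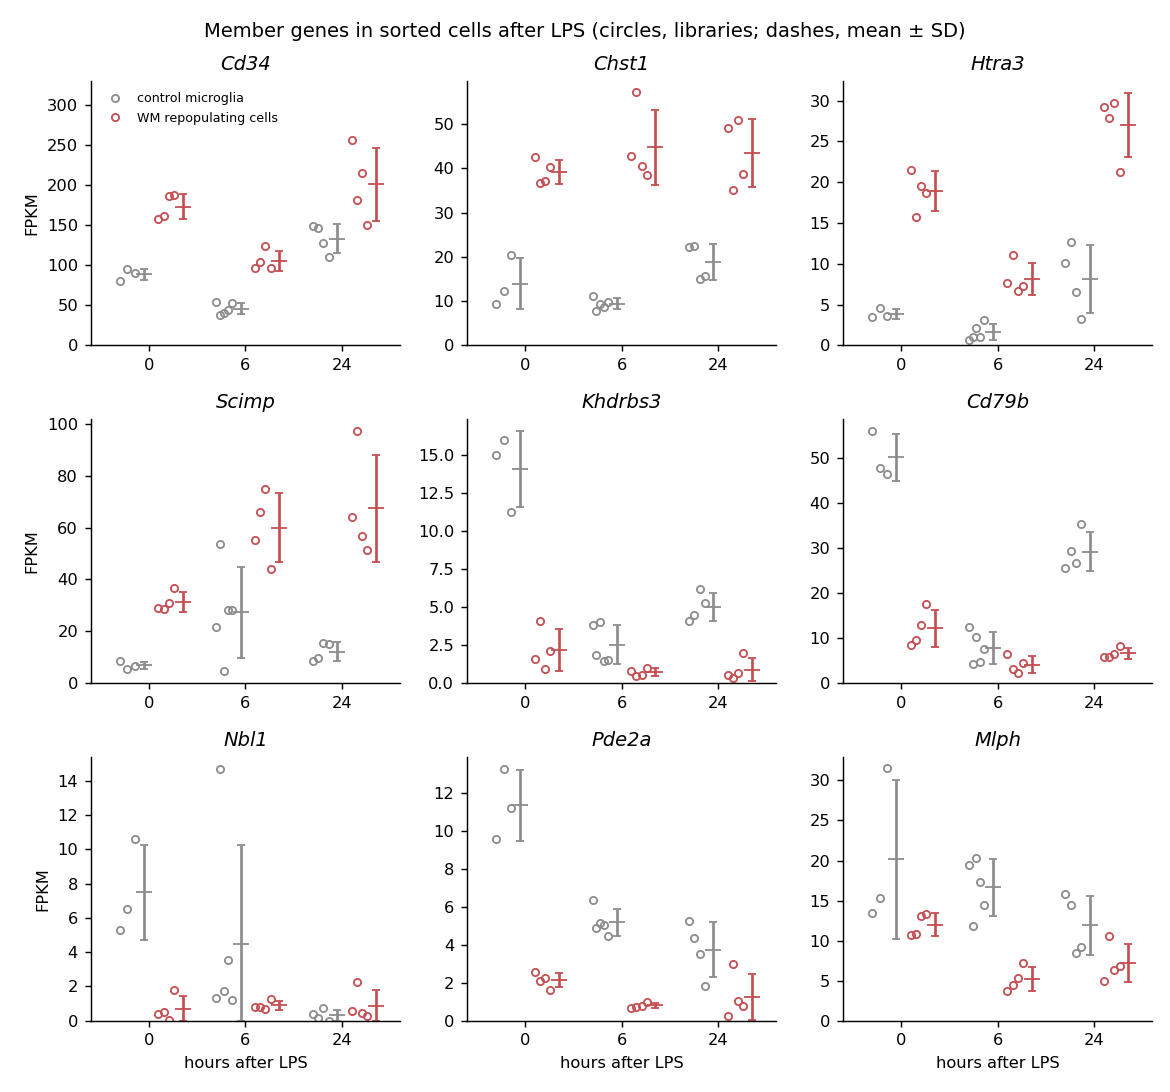
FPKM of the 9 genes (vertical axes, linear, a scale of its own in each panel) in control microglia (grey) and WM repopulating cells (red) at 0, 6 and 24 hr after LPS; circles are libraries and dashes with bars are the mean ± SD. The red circles of Cd34, Chst1 and Htra3 lie above the grey ones at each time and those of Khdrbs3 lie below, whereas Nbl1, Pde2a and Mlph overlap at 24 hr.

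Counted over the 9 genes, the groups were apart for all 9 at 0 hr, 4 above and 5 below, where 7.61% of the 12684 tested genes lay wholly above and 6.01% wholly below. At 6 hr 3 lay above and 3 below, where 2.11% and 1.66% of all genes did. These counts were fixed by the choice of the genes. At 24 hr, 7 of 9 were called, whereas 3.97% of all tested genes were (1.68% higher and 2.29% lower). The 4 higher genes were Cd34, Chst1, Htra3 and Scimp, with a median log2 fold change of 1.45, and the 3 lower genes were Khdrbs3, Cd79b and Pde2a, and the median over all 12684 genes was 0.02. Among the 9, 6 did not overlap at 24 hr, 4 above (5.76% of all genes) and 2 below (6.32%). In an exact 2-sided permutation test of each gene over the 8 libraries of 24 hr, the 6 genes without overlap reached p = 0.0286. This is the smallest value that 4 against 4 allows, and any gene without overlap reaches it. In the same permutation test Pde2a reached p = 0.0571, Mlph p = 0.0857 and Nbl1, with the higher mean in WM repopulating cells, p = 0.343. Among other genes that were called at 0 hr, 136 of 146 had the same direction at 24 hr, so a difference that lasted was not particular to the 9 genes.

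In control microglia at 0 hr, the order of the members' levels was Cd34 (88.7 ± 7.10 FPKM, SD, n = 3), Cd79b (50.1 ± 5.17 FPKM), Mlph (20.1 ± 9.95 FPKM), Khdrbs3 (14.1 ± 2.47 FPKM), Chst1 (13.96 ± 5.72 FPKM), Pde2a (11.3 ± 1.85 FPKM), Nbl1 (7.48 ± 2.77 FPKM), Scimp (6.82 ± 1.42 FPKM) and Htra3 (3.89 ± 0.616 FPKM). From Mlph to Scimp the ranges of all neighbours overlapped, whereas Cd34, Cd79b and Htra3 stood apart. In WM repopulating cells at 0 hr the order was Cd34 (173 ± 15.9 FPKM, SD, n = 4), Chst1 (39.2 ± 2.74 FPKM), Scimp (31.3 ± 3.85 FPKM), Htra3 (18.9 ± 2.43 FPKM), Cd79b (12.2 ± 4.07 FPKM), Mlph (11.99 ± 1.40 FPKM), Khdrbs3 (2.18 ± 1.36 FPKM), Pde2a (2.13 ± 0.379 FPKM) and Nbl1 (0.704 ± 0.769 FPKM). Neighbours overlapped there between Chst1 and Scimp, from Htra3 to Mlph, and from Khdrbs3 to Nbl1. Over the 6 groups of a gene, the WM 24 hr mean was the highest for Cd34, Htra3 and Scimp, and the control 0 hr mean was the highest for all 5 lower genes.

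The GLOBAL experiment asks whether the 9 genes also differ after the other kind of repopulation, in libraries that had no part in their choice. Their means lay in the same directions as at 0 hr in WM repopulating cells. All 4 higher genes were higher after GLOBAL repopulation in every library than in every control. Cd34 had 56.2, 54.8, 57.3 and 74.8 FPKM in controls and 89.4, 119.9 and 117 FPKM after GLOBAL repopulation. Chst1 had 11.4, 6.59, 19.3 and 25.3 FPKM in controls and 32.9, 46.3 and 41.2 FPKM after GLOBAL repopulation. Their folds were 1.79 and 2.56. Htra3 had 6.58, 4.74, 6.28 and 8.01 FPKM in controls and 9.64, 11.9 and 24.1 FPKM after GLOBAL repopulation. Scimp had 4.47, 2.58, 3.24 and 5.27 FPKM in controls and 15.4, 9.17 and 15.9 FPKM after GLOBAL repopulation, with 6 to 52 reads a library behind these values. Their folds were 2.38 and 3.47.

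Of the 5 lower genes, 4 were lower in every GLOBAL library than in every control. Nbl1 had 5.35, 2.83, 8.41 and 10.3 FPKM in controls and 1.05, 0.317 and 0.366 FPKM after GLOBAL repopulation. Pde2a had 23.3, 17.9, 10.2 and 19.1 FPKM in controls and 6.12, 4.81 and 1.95 FPKM after GLOBAL repopulation. They were at 8.59% and 24.4% of the control means, and Nbl1 at 5.08% without GLOBAL replicate 1. Cd79b had 12.1, 22.3, 18.1 and 25.3 FPKM in controls and 11.1, 7.92 and 7.54 FPKM after GLOBAL repopulation. Mlph had 21.4, 23.96, 22.4 and 30.1 FPKM in controls and 19.8, 15.6 and 13.9 FPKM after GLOBAL repopulation. They were at 45.6% and 67.2% of the control means. Khdrbs3 overlapped, with 2.80, 1.91, 4.21 and 4.46 FPKM in controls and 1.75, 1.97 and 2.38 FPKM after GLOBAL repopulation.

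**Figure D2:**
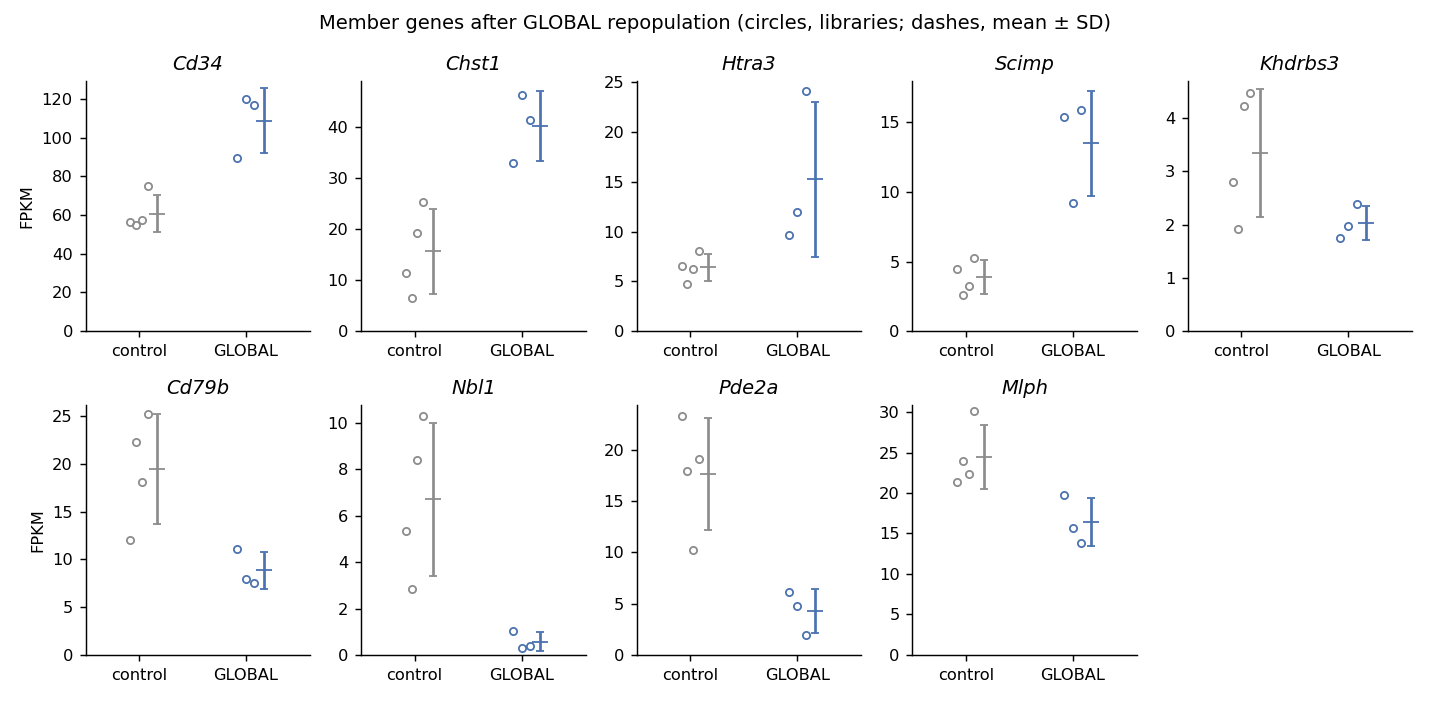
FPKM of the 9 genes (vertical axes, linear, a scale of its own in each panel) in the 4 control libraries (grey) and the 3 libraries of GLOBAL repopulation (blue); circles are libraries and dashes with bars are the mean ± SD. The blue circles lie above the grey ones for Cd34, Chst1, Htra3 and Scimp and below them for Cd79b, Nbl1, Pde2a and Mlph, and Khdrbs3 overlaps.

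None of the 9 passed the test over all genes in the GLOBAL experiment, and 0 of its 16651 tested genes did (0%), with a smallest limma adjusted p of 0.0776. At an unadjusted p under 0.05, 8 of the 9 genes passed, against 1504 of all genes (9.03%, with 4.37% higher and 4.67% lower). Of the 9, 4 lay wholly above the controls (5.83% of all genes) and 4 wholly below (4.14%). The log2 fold change was 1.56 for Scimp (95% interval 1.01 to 2.12, limma adjusted p = 0.115), 1.44 for Chst1 (0.66 to 2.23, adjusted p = 0.294), 1.05 for Htra3 (0.43 to 1.67, adjusted p = 0.326) and 0.83 for Cd34 (0.48 to 1.18, adjusted p = 0.163). It was -2.21 for Nbl1 (95% interval -2.99 to -1.43, limma adjusted p = 0.115), -1.85 for Pde2a (-2.58 to -1.13, adjusted p = 0.14) and -1.02 for Cd79b (-1.56 to -0.49, adjusted p = 0.275). For Mlph it was -0.55 (95% interval -0.93 to -0.17, limma adjusted p = 0.406), and for Khdrbs3 the interval held 0 (-1.04 to 0.08, adjusted p = 0.595). Of 142 other genes called at 0 hr between WM repopulating cells and control microglia and tested here, 106 (74.6%) had the same direction after GLOBAL repopulation. The means of the 9 genes after GLOBAL repopulation thus lay on the same side of controls as at 0 hr in WM repopulating cells, though Khdrbs3 overlapped. The direction of these means does not set WM repopulating cells apart from GLOBAL repopulation, and the cells were not compared directly. Neutrophil markers summed to 2346 to 24571 FPKM in controls and 1347 to 4947 FPKM after GLOBAL repopulation (median log2 fold change of the list -1.33), and monocyte markers to 254 to 1370.2 FPKM and 178 to 507 FPKM (median -0.93). None of them was called, and their part in the folds of the 9 genes was not tested. The sizes of these folds in the GLOBAL and WM experiments were not compared with a test, since the experiments were normalized separately and the drug was given for different times.

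**Figure D3:**
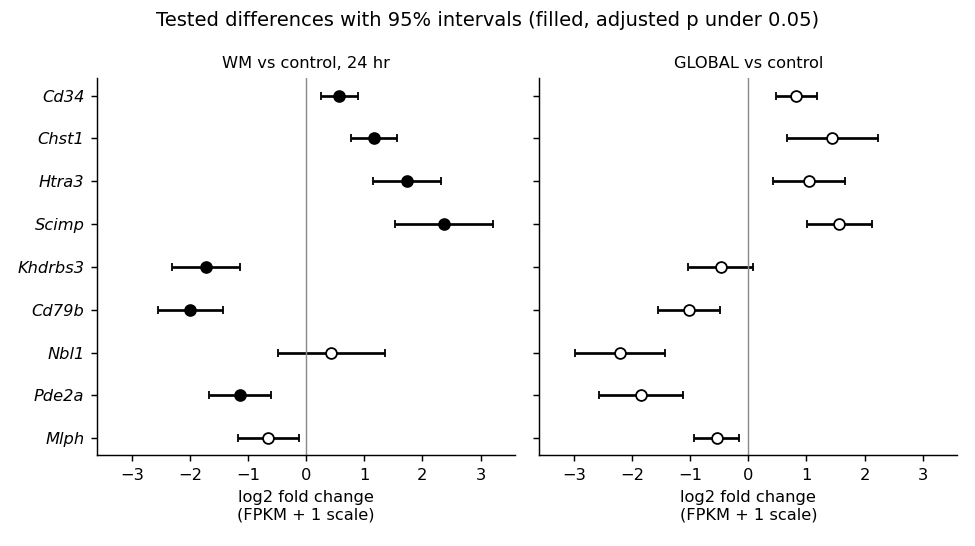
Log2 fold changes on the log2(FPKM + 1) scale (horizontal axes) of the 9 genes at 24 hr, WM repopulating cells against controls, and for GLOBAL repopulation against its controls, with 95% intervals; filled circles have a limma adjusted p under 0.05 and open circles do not. The plot has 7 filled genes for WM repopulating cells at 24 hr and 0 for GLOBAL repopulation.

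The change of the 9 genes with LPS is given as a description, with no test, since the 0 hr and 6 hr libraries chose the genes. It was averaged over control microglia and WM repopulating cells with equal weight. At 6 hr against 0 hr, Scimp was higher, with a log2 fold change of 1.22 ± 0.29 SE. The lowest values were those of Cd79b (-2.0 ± 0.20 SE) and Khdrbs3 (-1.49 ± 0.20 SE). They were followed by Htra3 (-1.07), Pde2a (-0.89), Cd34 (-0.83), Mlph (-0.64), Nbl1 (-0.40) and Chst1 (-0.15). With 1 library left out, Nbl1 ranged from -0.65 to -0.27 and Chst1 from -0.26 to -0.0012.

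At 24 hr against 0 hr, the averaged log2 fold change was 0.88 for Scimp, 0.63 for Htra3, 0.38 for Cd34 and 0.29 for Chst1 (0.17 to 0.44 with 1 library left out). It was -1.03 for Khdrbs3, -1.01 for Pde2a, -0.76 for Cd79b and -0.68 for Mlph. For Nbl1 it was -1.27, which came from control microglia (-2.66), whereas WM repopulating cells differed by 0.13 between these times. These contrasts share their libraries with those between the origins, so their agreement is not counted. Averaged over both origins, Cd34 and Htra3 were thus below their 0 hr level at 6 hr and above it at 24 hr, whereas Khdrbs3, Cd79b, Pde2a and Mlph were below it at both times.

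Within each origin the changes are given without a test. Cd34 at 6 hr was at 51.8% of the 0 hr mean in control microglia and 60.7% in WM repopulating cells, and Htra3 was at 40.6% and 43.1%. At 24 hr Cd34 was 1.502-fold its 0 hr level in control microglia, without overlap, and 1.16-fold in WM repopulating cells, where the libraries overlapped (log2 fold change 0.19, 95% interval -0.12 to 0.50). Htra3 at 24 hr was 2.09-fold and 1.43-fold, and the libraries overlapped in both origins (log2 fold change in WM repopulating cells 0.49, 95% interval -0.10 to 1.07). Scimp at 6 hr was 3.997-fold its 0 hr level in control microglia and 1.92-fold in WM repopulating cells, and at 24 hr 1.78-fold and 2.15-fold. Cd79b at 6 hr was at 15.7% of its 0 hr level in control microglia and 33.6% in WM repopulating cells. Nbl1 at 24 hr was at 4.30% of the 0 hr mean in control microglia (2.46% without control 24 hr replicate 3), and all of those libraries lay below the 0 hr libraries, whereas WM repopulating cells started at 0.704 ± 0.769 FPKM (SD, n = 4) and overlapped over time. In no member did all libraries of one origin move up and all of the other move down between any pair of times.

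In SVZ tissue, where microglia are a minority of the cells, 7 of the 9 genes were listed (Scimp and Cd79b were not listed in that table) and 6 were tested. The summed level of the 12 homeostatic microglia markers was 217 to 290 FPKM in control tissue, 16.5 to 20.1 FPKM at 14 days of PLX3397 and 26.5 to 33.9 FPKM at 5 days of recovery. In such bulk tissue, fewer cells of a type and less RNA per cell cannot be told apart. None of the 6 tested genes was called at 14 days of PLX3397 or at 5 days of recovery, where 1.26% and 1.27% of all genes were (limma). At an unadjusted p under 0.05, Cd34 and Nbl1 passed at 14 days and Khdrbs3 at 5 days of recovery, against 6.12% and 16.6% of all genes.

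Cd34 had 9.14, 10.8, 7.76, 8.69 and 10.54 FPKM in control tissue and 5.14, 6.19, 7.90, 8.06 and 8.93 FPKM at 14 days of PLX3397, with a log2 fold change of -0.35 (95% interval -0.64 to -0.05, limma adjusted p = 0.616). Chst1 and Pde2a were abundant in the tissue and did not follow the microglia markers. Chst1 ranged from 88.03 to 139.9 FPKM in control tissue and from 91.7 to 139.9 FPKM at 14 days, and Pde2a from 82.1 to 137 FPKM and from 82.6 to 141 FPKM, with log2 fold changes of 0.10 (95% interval -0.28 to 0.47) and -0.05 (-0.48 to 0.38). Nbl1 ranged from 14.6 to 26.8 FPKM in control tissue and from 19.05 to 46.1 FPKM at 14 days of PLX3397 (log2 fold change 0.59, limma adjusted p = 0.729), and Khdrbs3 ranged from 8.43 to 13.7 FPKM in control tissue and from 11.9 to 17.53 FPKM at 5 days of recovery (log2 fold change 0.32, adjusted p = 0.268). Htra3 was low in all 3 groups, from 1.63 to 3.001 FPKM in control tissue. Mlph was under the limit of 1 FPKM for testing and had 0 to 24 reads a library, with 0.337, 0.341, 0.409, 0.192 and 0.281 FPKM in control tissue, 0.0496, 0.0631, 0.0433, 0.0467 and 0.121 FPKM at 14 days of PLX3397 and 0, 0.162, 0.0256, 0.0231 and 0.0283 FPKM at 5 days of recovery. All treated libraries lay below all controls, as did 1.92% and 1.97% of the tested genes at the same times. The mean of Mlph was at 20.8% of the control mean at 14 days and 15.3% at 5 days of recovery, or 6.16% without recovery replicate 2.

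**Figure D4:**
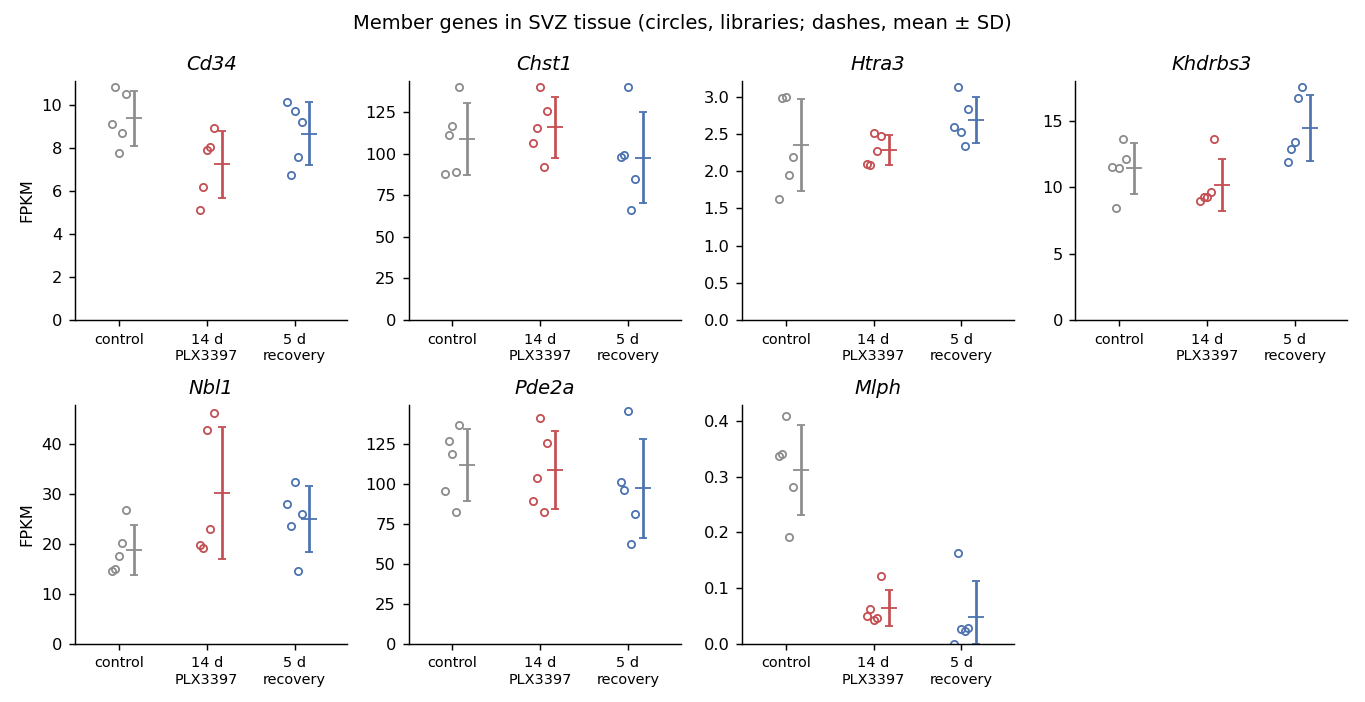
FPKM of the 7 listed genes (vertical axes, linear, a scale of its own in each panel) in SVZ tissue of control mice (grey), at 14 days of PLX3397 (red) and at 5 days of recovery (blue), 5 libraries each; circles are libraries and dashes with bars are the mean ± SD. The groups overlap for 6 genes, and for Mlph all treated libraries are at or under 0.162 FPKM and all controls at or above 0.192 FPKM.

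Relatives and partners of the 9 genes were followed as 8 lists with 74 genes, of which 47 were tested in the WM experiment. At 24 hr, 3 of the 47 were called between the origins, all of them higher in WM repopulating cells, where 1.68% of all genes were. They were Myo5a, the myosin Va to which Mlph binds (log2 fold change 1.21, limma adjusted p = 3.48e-05), Pde1b, a calmodulin-dependent phosphodiesterase (0.99, adjusted p = 0.0163), and Smad7, an intracellular inhibitor of TGF-beta and BMP signaling (0.66, adjusted p = 0.0450). At 0 hr, 2 of 47 were called, Myo5a (0.81, limma adjusted p = 0.00865) and the sulfotransferase Chst2 (1.09, adjusted p = 0.0346), where 0.717% of all genes were called higher, and at 6 hr Myo5a alone was (0.70, adjusted p = 0.0180). Myo5a had means of 1.72 and 3.78 FPKM at 0 hr, 2.06 and 3.93 FPKM at 6 hr and 1.29 and 4.28 FPKM at 24 hr in control microglia and WM repopulating cells. Myo5a was thus higher where Mlph was lower at 0 hr and 6 hr, and Rab27a, which joins them, was at 27.0 and 21.4 FPKM at 0 hr and was not called. None of the 12 tested partners of Scimp and the B cell receptor was called between the origins at any time.

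After LPS, genes of the lists were called in both directions, at shares near those of all genes. With both origins averaged, 11 of the 47 genes were called higher at 6 hr and 16 lower, where 55% of all genes were called (27.5% higher and 27.5% lower), and at 24 hr 6 were higher and 11 lower, where 35.2% were (19.1% and 16.1%). Among the partners of Scimp and the B cell receptor, the kinases Fgr (log2 fold change 2.86) and Lyn (0.73) rose at 6 hr, and the adaptor Blnk fell (-2.17). Among the sulfotransferases, Chst15 (-1.15), Chst12 (-1.02) and Chst10 (-0.59) fell and Chst11 rose (1.36). Among the phosphodiesterases, Pde8b (-0.95) and Pde6d (-0.45) fell and Pde7b (0.89) and Pde1b (0.59) rose. Of the relatives of Htra3, Htra1 rose (1.97) and Htra2 fell (-0.74). Of the relatives of Khdrbs3, Qk fell (-1.22) and Sf1 rose (0.48). Podxl2, a relative of Cd34 (-0.69), and Smad7 (-0.62) and the BMP antagonist Dand5 (-0.82) fell, and Rab27a rose (0.42). At 24 hr Rab27a (0.91, limma adjusted p = 0.000181), Fgr (1.59), Lcp2 (0.64), Sf1 (0.37) and Pde7a (0.48) were higher than at 0 hr. Blnk (-1.05), Chst10 (-0.98), Chst15 (-0.68), Htra2 (-0.54), Qk (-0.52), Khdrbs1 (-0.44), Sostdc1 (-1.69), Dand5 (-0.83) and Pde8b (-0.72) were lower. In the GLOBAL experiment 0 of 54 tested genes of the lists were called, and in SVZ tissue Lyn, Lcp2 and Plcg2 were called lower at 14 days of PLX3397 and at 5 days of recovery.

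The genes whose levels over the 24 sorted libraries of the WM experiment were most like each member are given by Pearson's r of log2(FPKM + 1), as a description, since the libraries share their groups. Cd34 was most like Tspan32 (r = 0.94), Tnfsf13b (0.93) and Ctsh (0.92). Htra3 was most like Tnfsf13b (0.90), Arhgap15 (0.89) and Pfkfb4 (0.88), so that Tnfsf13b, which encodes the B cell survival factor BAFF, stood beside both. Chst1 was most like Mtap7d3 (0.85), Rnf128 (0.83) and Gde1 (0.83), and Scimp was most like the UDP-glucose receptor P2ry14 (0.86), Npc2 (0.84) and Synj2 (0.84). Khdrbs3 was most like Myo18b (0.89), Crybb1 (0.89) and Tle2 (0.88), and Pde2a most like Myo18b (0.84), Slc5a10 (0.83) and Rab34 (0.82). Cd79b was most like Anp32a (0.91), Cib1 (0.90) and Fam71a (0.89), Mlph most like Rab34 (0.82), Igf1r (0.80) and Hist4h4 (0.78), and Nbl1 most like Ptafr (0.77), Gm13889 (0.75) and Eepd1 (0.74). Once the group means were removed, r with these genes was 0.056 to 0.84, lower than over all libraries in each pair except Nbl1 with Ptafr. It was 0.36 for Cd34 with Tspan32, 0.56 with Tnfsf13b and 0.37 with Ctsh, but 0.21 for Htra3 with Tnfsf13b, 0.13 with Arhgap15, 0.056 for Pde2a with Myo18b and 0.15 with Slc5a10. Between members, the 6 pairs of higher genes had r of 0.31 to 0.93 and the 10 pairs of lower genes 0.17 to 0.89. Within groups the median r was 0.20 (-0.32 to 0.51) for the higher pairs and -0.03 (-0.42 to 0.59) for the lower pairs.

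Markers of other cells that could carry these genes are given beside them. Of 3 tested endothelial markers, Pecam1 was lower in WM repopulating cells at 24 hr (log2 fold change -1.56, limma adjusted p = 0.00603) and at 0 hr (-1.54, adjusted p = 0.0259). Kdr (0.24 at 24 hr and 0.72 at 0 hr) and Flt1 (0.11 and 0.13) were not called. The 5 listed endothelial markers summed to 9.13 to 13.4 FPKM in control microglia and 4.74 to 7.45 FPKM in WM repopulating cells at 0 hr. Of 12 hematopoietic stem and progenitor markers other than Cd34, 11 were listed, with sums of 18.3 to 20.8 FPKM in control microglia and 16.7 to 26.9 FPKM in WM repopulating cells at 0 hr, and Kit was at means of 0.125 and 0.0262 FPKM. Markers of border-associated macrophages had sums of 134 to 251 FPKM in control microglia and 79.5 to 134 FPKM in WM repopulating cells at 0 hr, 110.5 to 216 against 139.8 to 192 FPKM at 6 hr, 141 to 165 against 107 to 132 FPKM at 24 hr, and 161 to 188 against 102 to 128 FPKM in the GLOBAL experiment. At 24 hr 2 of 11 tested were called, Mrc1 (log2 fold change -1.19, limma adjusted p = 0.0153) and Cd209f (-1.46, adjusted p = 0.00539). The part of these cells in the levels of the lower members was not tested. Of 12 monocyte markers 1, Fn1, was called higher at 24 hr, while the median log2 fold change of the list was -0.48. Of 12 neutrophil markers 1, Cxcr2, was called lower, with a median of -1.10 over the list and sums of 6580.1 to 15586 FPKM in control microglia and 3255 to 7423 FPKM in WM repopulating cells. At 0 hr Cd209f (-1.27, limma adjusted p = 0.0496) and the progenitor marker Hlf (-1.06, adjusted p = 0.00909) were lower, whereas the median over the 9 tested progenitor markers was 0.15. The T cell marker Cd3d was higher at 0 hr (1.74, limma adjusted p = 0.0174) and the T cell adaptor Skap1 at 24 hr (0.88, adjusted p = 0.0496), with medians over the 12 T and NK markers of 0.64 and 0.20. The 12 markers of T and NK cells summed to 22.6 to 54.4 FPKM in control microglia and 58.7 to 104 FPKM in WM repopulating cells at 0 hr, 57.3 to 218 against 83.8 to 209.8 FPKM at 6 hr, 48.6 to 94.7 against 35.1 to 202 FPKM at 24 hr, and 22.7 to 56.7 against 22.3 to 24.4 FPKM in the GLOBAL experiment. Their part in the levels of the 9 genes was not tested.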

How the data were processed

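RNA-seq was deposited by the authors as 3 tables of FPKM, for the WM experiment (24 libraries), the GLOBAL experiment (7) and SVZ tissue (15). The submitters' processing notes name mm10, STAR, featureCounts, edgeR and limma. The methods describe Smart-seq2 libraries, whereas the labels describe another library protocol, so the protocol of each table is uncertain. Tables were normalized separately, and tests were made within a table. The 9 genes and all gene lists were chosen with earlier results of these data known. The text names all 9 genes, the 3 genes most like each by Pearson's r, and up to 4 called genes of each list of relatives and partners with the smallest adjusted p. A gene of these lists is not reported here. Values were taken as log2(FPKM + 1), genes with at least 1 FPKM in at least 3 libraries were kept, and all groups of a table were fitted together in limma 3.58.1 (R 4.3.3) with an intensity trend. The change of the 9 genes with LPS, planned as a test, is given without one, since the 0 hr and 6 hr libraries chose them. Tests were 2-sided, and a gene was called at a Benjamini-Hochberg adjusted p under 0.05. The steps were checked on simulated data. The methods count n in mice, but the labels tie no library to an animal, so p-values measure the spread between these libraries, part of which may be technical. Reads per library were recovered from the FPKM steps of low genes. Motifs were searched in the 250 bases before each start, and not in the 50 bases after it as first planned, since those are transcribed. Alternatives were a pseudocount of 0.1, no filter, other scalings, fits of the compared groups alone, a replicate block and leaving out each library.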

Additional observations from a re-analysis of the deposited data

Results flagged for a closer look

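In 7 of 75 groups of 4 or 5 libraries, 1 library of a member stood far from the others, where chance gives about 1 in 20 groups. Nbl1 had 3 of them. Control 6 hr replicate 2 had 14.7 FPKM and the other control 6 hr libraries 1.19 to 3.56 FPKM. WM 6 hr replicate 4 had 1.28 FPKM (others 0.705 to 0.800), and WM 24 hr replicate 2 had 2.28 FPKM (others 0.273 to 0.547). Cd34 had 74.8 FPKM in GLOBAL control replicate 4 (others 54.8 to 57.3). At 14 days of PLX3397, SVZ replicate 5 stood apart for Khdrbs3, with 13.6 FPKM (others 8.93 to 9.61), and for Mlph, with 0.121 FPKM (others 0.0433 to 0.0631). Mlph had 0.162 FPKM in SVZ 5 day recovery replicate 2 (others 0 to 0.0283). The causes were not tested.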

How the results depend on the processing

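Of 1140 alternative values for 66 results of single members, 1107 kept their direction and side of the threshold, or moved by less than the spread. The 66 include the differences at 0 hr and 6 hr, whose direction the choice of the genes fixed. They also include the changes with LPS, for which no test is given. The share therefore does not measure how well the tested results hold. Fitting only the groups compared gave 255 DEGs at 24 hr (503 with all groups) and 16 at 6 hr (41). Leaving out 1 library gave 291 to 438 DEGs at 24 hr, 64 to 103 at 0 hr (154 with all), 23 to 75 at 6 hr, 0 to 1 in the GLOBAL experiment and 143 to 330 at 5 days of recovery (180 with all). Without the filter on low values, Mlph was called in SVZ tissue at both times, so 1 member was called in each. Htra3 at 14 days of PLX3397 had a log2 fold change of 0.0094 with quantile normalization and -0.093 to 0.059 with 1 library left out, and Pde2a -0.15 to 0.040. The cause was not tested.

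Deviations from the group means of libraries with the same replicate number had r = 0.056 to 0.14 over 3 pairs in the GLOBAL experiment. Pairs with different numbers had r = -0.14 to 0.091 there. In the WM experiment r was -0.19 to 0.27 for the same number and -0.28 to 0.31 for different numbers. In SVZ tissue it was -0.15 to 0.49 and -0.48 to 0.29. Whether libraries with the same number belong together cannot be told from these pairs, and the labels give only the number. With a replicate block, 55 DEGs and 4 members were called in the GLOBAL experiment (Cd34, Scimp, Nbl1 and Pde2a), 457 DEGs at 24 hr, 140 at 0 hr and 39 at 6 hr, and no other call of a member changed. Depth limits Nbl1 (0 reads in its lowest library of the WM experiment), Khdrbs3 (5 reads there, and 5 to 31 in WM libraries at 24 hr) and Scimp (6 reads in the GLOBAL experiment). It limits Mlph in SVZ tissue only, with 0 reads in the lowest library. Mlph had 129 to 909 reads a library in the WM experiment and 193 to 655 in the GLOBAL experiment.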
